A study of Mus musculus with 6 samples.

Results

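The 6 genes of the mouse egg surface followed here were measured in fully grown oocytes with and without LSM14B, an RNA-binding protein of the oocyte cytoplasm. They are Zp1, Zp2 and Zp3, which encode the glycoproteins of the mouse zona pellucida, Astl, which encodes the cortical granule protease ovastacin, and Cd9 and Cd81, which encode tetraspanins of the plasma membrane. The members were the 6 rows of the deposited expression table that carry these gene symbols, of 24255 genes listed. All but Cd81, that is 5 members, reached 1 FPKM (fragments mapped to a gene, scaled for transcript length and library depth) in at least 1 library, as did 6398 genes in all.

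The zona pellucida is an extracellular coat that the growing oocyte secretes around itself. ZP2 and ZP3 form its filaments and ZP1 cross-links them. At fertilization, sperm meet this coat first and then the egg membrane, where CD9 is needed for sperm and egg to fuse and CD81 contributes to the same step. Fusion triggers release of the cortical granules, and ovastacin from these granules cleaves ZP2, after which sperm no longer bind the coat. Transcription of the zona genes in growing oocytes depends on FIGLA, a basic helix-loop-helix factor that acts through E-box sequences, and fully grown oocytes are nearly silent in transcription and keep their mRNAs in store.

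The comparison asked how the stored mRNA population differs when LSM14B is missing. Germinal vesicle-stage fully grown oocytes (FGOs) came from WT mice and from Lsm14b-KO mice, which were homozygous for the reporter-tagged insertion allele Lsm14b tm1a(KOMP)Mbp. The study kept the line on a C57BL/6J background, and the allele is present in every cell of the mouse, not in the oocyte alone. Mice of both groups had received 5 IU of PMSG, a gonadotropin that stimulates follicle growth, 46 h before collection. Each group had 3 libraries of 20 oocytes. The age of the donors and whether the libraries came from separate mice are not given in the sources used here, so p-values measure the spread between these libraries.

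Lsm14b stood at 2.77, 3.98 and 1.72 FPKM in WT1, WT2 and WT3 and at 0, 0 and 0.10 FPKM in KO1, KO2 and KO3, an adjusted p of 0.0038 in limma. All 14 oocyte marker genes reached the detection limit. Of 18 cumulus and granulosa cell markers, 7 were listed at 0 throughout, among them Foxl2 and Amh, and the list summed to 10.1 to 13.6 FPKM in WT and 6.26 to 10.4 FPKM in KO libraries. The gene with the highest level among them, Cyp19a1, was lower in the KO libraries (means of 10.1 and 4.75 FPKM, adjusted p = 0.0426 in limma), and Fshr had means of 0.852 and 1.94 FPKM and did not pass (adjusted p = 0.0923 in limma). Theca and stroma markers summed to at most 0.33 FPKM, sperm-side genes to at most 0.32 FPKM, and the 8 blood markers were listed at 0. Log2 expression values of KO1 correlated at 0.952 to 0.954 with the WT libraries, at 0.960 with KO3 and at 0.917 with KO2. KO2 and KO3 correlated with each other at 0.974 and with the WT libraries at 0.867 to 0.929. Values across all listed genes summed to 1141323.8 to 1244181.7 FPKM in WT, 1029727.9 in KO1, 564671 in KO2 and 676656 in KO3. Whole reads are not listed, so counting error is unknown. Relative depth was estimated from the commonest ratio to WT1 among values below 0.5 FPKM. With WT1 set to 1, it was 1.14 and 1.03 in WT2 and WT3. In KO1, KO2 and KO3 it was 1.33, 1.95 and 2.18, so estimated depth differed between the groups. Oocyte number per library was fixed and no spike-in is described, so less RNA per oocyte and a smaller share of the measured RNA cannot be told apart.

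In the coding sequences of Zp1 and Zp2 lies the hexamer CCUCUC, written with T for U below, which was searched because the study linked it to LSM14B. Both sites are shown with 12 bases on either side, read in the direction of the mRNA from the GENCODE transcripts of build GRCm38, with the hexamer in capitals. The Zp1 hexamer is at chr19:10917921-10917926 and the Zp2 hexamer at chr7:120137224-120137229, both on the minus strand.
Zp1: gtcttccatgtcCCTCTCaccctctgtgga
Zp2: ctaccagttctaCCTCTCttcactcaagct
Each of these transcripts held 1 copy, and those of Zp3, Astl, Cd9 and Cd81 held none. Of 6085 transcripts of tested genes, 54.3% held at least 1 copy, beside 2 of the 6 members. The study mapped binding itself by LACE-Seq, a method that sequences the RNA bound to LSM14B. It names the ZPs in a pooled list of oogenesis factors from LACE-Seq and from co-immunoprecipitation with LSM14B. That list does not say which of these methods found each factor. The hexamer alone therefore does not tell which members were bound.

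E-boxes were then located upstream of the members, because FIGLA acts through them. Promoter sequences were taken from RefSeq (build GRCm38.p6), which gave entries for 4 of the 6 genes, and the window from 250 to 41 bases before the start site was read on the strand of the gene. The windows of Zp3, Astl and Cd9 are printed, as those of the expressed members with an E-box, with each CANNTG in capitals. The Zp3 window (chr5:135979855-135980064, plus strand) lies before the first exon, the Astl window (chr2:127341386-127341595, plus strand) lies before the second listed start, in an intron of the longest transcript, and the Cd9 window (chr6:125494801-125495010, minus strand) lies before the first exon.
Zp3: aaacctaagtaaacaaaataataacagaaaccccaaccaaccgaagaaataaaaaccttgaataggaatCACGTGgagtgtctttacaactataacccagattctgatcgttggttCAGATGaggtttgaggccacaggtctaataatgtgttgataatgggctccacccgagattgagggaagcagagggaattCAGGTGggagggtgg
Astl: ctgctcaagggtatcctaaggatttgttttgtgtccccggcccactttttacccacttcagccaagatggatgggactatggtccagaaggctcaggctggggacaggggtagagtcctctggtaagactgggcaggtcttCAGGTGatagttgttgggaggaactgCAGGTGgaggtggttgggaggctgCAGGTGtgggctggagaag
Cd9: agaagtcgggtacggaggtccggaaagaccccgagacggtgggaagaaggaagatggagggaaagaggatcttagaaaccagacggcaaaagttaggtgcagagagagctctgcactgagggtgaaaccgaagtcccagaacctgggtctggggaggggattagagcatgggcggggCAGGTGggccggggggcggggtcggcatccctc
Zp3 carried CACGTG 181 bases, CAGATG 134 bases and CAGGTG 55 bases before its start. The Astl window carried CAGGTG at 109, 83 and 59 bases, while the window before the first listed Astl start (chr2:127338389-127338598) carried no E-box. Cd9 carried 1 CAGGTG, at 73 bases, and Cd81 carried 1 CAGCTG, at 145 bases. Among 32851 mouse promoter windows of this length, 60.7% held a CANNTG, 15% held CAGGTG or its reverse complement CACCTG, and 4.65% held CACGTG, which is also a CANNTG. Neither TATAAA (9.56% of windows, both strands) nor TAATTG (6.38%, both strands) occurred in any of the member windows. Bases nearer to the start than 41 were not searched, so a TATA box there would have been missed.

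In WT FGOs the members covered a wide range of levels. Per transcript length, the order in all 3 WT libraries was Zp3, Cd9, Zp2, Zp1, Astl and Cd81, and the WT ranges of neighbours in this order did not overlap. Zp3 ranked above 93.8% to 95.7% of the tested genes, Cd9 above 92.0% to 92.5%, and Zp2 above 85.1% to 89.5%. Zp1 ranked above 60.2% to 68.9% and Astl above 50.5% to 54.1%. In the KO libraries the ranges of Zp3 and Cd9 overlapped, as did those of Zp1 and Astl. Cd9 was above Zp3 in KO1 only, and Astl was above Zp1 in KO1 and KO2.

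**Figure D1:**
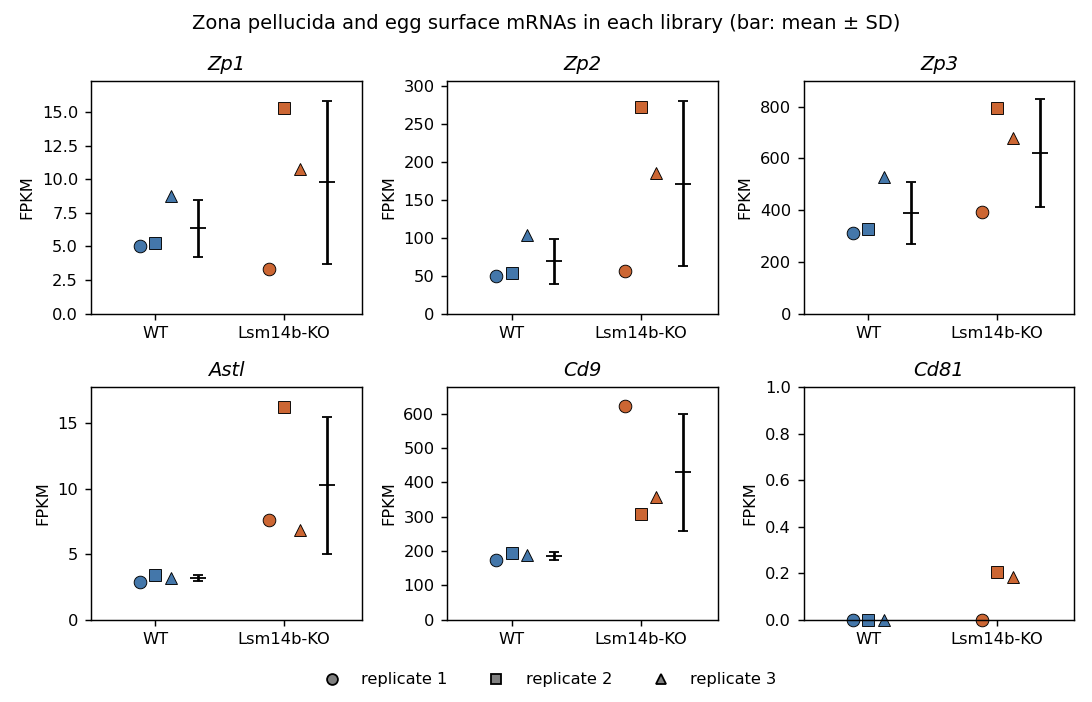
FPKM of the 6 members (y axis, linear, separate scale per gene) in the 3 WT and 3 Lsm14b-KO libraries, with the mean ± SD beside the points for all but Cd81. For Astl and Cd9 every KO point lies above every WT point, while for Zp1, Zp2 and Zp3 KO1 lies within or below the WT range.

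Astl mRNA was higher in Lsm14b-KO oocytes, and it was the 1 member of the 5 tested that passed the test across all genes. Among all 6398 tested genes, 21.6% passed in either direction and 6.38% passed as higher. Astl stood at 2.92, 3.44 and 3.19 FPKM in WT1, WT2 and WT3 and at 7.61, 16.2 and 6.87 FPKM in KO1, KO2 and KO3. The lowest KO library was above the highest WT library, with KO2 far above the other KO libraries. Means were 3.18 ± 0.26 FPKM in WT and 10.2 ± 5.19 FPKM in KO oocytes (SD, n = 3 each). The fitted difference was 1.33 ± 0.32 (SE) on the log2(FPKM + 1) scale, with a 95% interval of 0.60 to 2.07 and a limma adjusted p of 0.025. That corresponds to a fold of 2.52 (1.51 to 4.20) on the same scale, which understates the change of genes as low as this one. By exact permutation of the 6 libraries (two-sided) p was 0.10, the smallest that 3 libraries against 3 allow. The call was lost when WT1, WT2, WT3 or KO3 was left out, with adjusted p-values of 0.109, 0.0915, 0.0945 and 0.0578 in limma and differences of 1.29, 1.38, 1.34 and 1.54. Of all tested genes 6.19%, 6.21%, 7.22% and 4.92% passed in these subsets. It was also lost when no filter on low values was applied (adjusted p = 0.0659 in limma, where 5.03% of 14325 genes passed).

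Cd9 mRNA was also above the WT range in each KO library, but its adjusted p fell just outside the threshold. It stood at 173.3, 194.7 and 189.9 FPKM in WT1, WT2 and WT3 and at 622.7, 307.2 and 358.1 FPKM in KO1, KO2 and KO3. The WT libraries lay close together, and KO1 was the highest KO library, unlike for the other tested members. Means were 186 ± 11.2 FPKM in WT and 429.3 ± 169.4 FPKM in KO oocytes (SD, n = 3 each). The fitted difference was 1.13 ± 0.34 (SE, log2 scale; 95% interval 0.34 to 1.93), a fold of 2.2 (1.27 to 3.81), with a limma adjusted p of 0.0501 (exact permutation p = 0.10). Under 10 of 16 alternative settings the adjusted p in limma was below 0.05. Library scaling to a common sum gave a difference of 1.83 (adjusted p = 0.0022). Without KO1 it was 0.83 (adjusted p = 0.0106), where 45.3% of all tested genes passed. Pseudocounts of 0.1 and 0.01 and median-of-ratios scaling gave adjusted p-values only just below, 0.0476, 0.0494 and 0.05 after rounding. Cd9 did not pass with no filter on low values (adjusted p = 0.0921) or with a replicate block (0.0857). Nor did it pass without WT1, WT2, WT3 or KO3 (adjusted p = 0.168, 0.147, 0.133 and 0.13). In limma 20.8% and 17.7% of all tested genes passed with pseudocounts of 0.1 and 0.01, 28.4% with a filter of 1 FPKM in 3 libraries, 20.6% with scaling to a common sum, 19.9% with quantile normalization, 21.6% with median-of-ratios scaling, 21.8% with length correction and 20.6% without a variance trend, and Astl and Cd9 were the members that passed in each of these. Groups did not overlap for 2 of the 5 tested members, both higher in the KO libraries, beside 45.0% of tested genes in either direction and 19.1% higher. Cd9 overlaps the opposite-strand genes Gm28809 and Gm26728, and the latter matches Cd9 over a near-identical stretch of at least 200 bases. Whether that stretch is the overlap itself was not checked. Reads of these genes could have been split or mixed.

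The mRNAs of the 3 zona proteins were higher in KO2 and KO3 than in any WT library, whereas KO1 was not above the WT range for any of them. None passed the test, although the fitted difference was above 0 for each of the 5 tested members, as it was for 46.8% of all tested genes. Zp2 stood at 49.1, 54.2 and 102.9 FPKM in WT1, WT2 and WT3 and at 56.7, 272.2 and 184.5 FPKM in KO1, KO2 and KO3. KO1 lay between WT2 and WT3. The means were 68.7 ± 29.7 and 171.1 ± 108.4 FPKM (SD, n = 3 each) and the fitted log2 difference was 1.12 ± 0.59 (SE; 95% interval −0.24 to 2.48, adjusted p = 0.191 in limma; exact permutation p = 0.20).

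Zp3, the most abundant of the zona mRNAs, stood at 311.2, 327 and 528.5 FPKM in WT and at 390.8, 792.6 and 678.5 FPKM in KO1, KO2 and KO3. Here too KO1 lay between WT2 and WT3. Means were 388.9 ± 121.2 and 620.6 ± 207.1 FPKM (SD, n = 3 each), with a fitted log2 difference of 0.65 ± 0.38 (SE; 95% interval −0.23 to 1.53, adjusted p = 0.228 in limma; exact permutation p = 0.20).

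Zp1, which encodes the cross-linking protein, stood at 5.00, 5.29 and 8.79 FPKM in WT and at 3.29, 15.3 and 10.8 FPKM in KO1, KO2 and KO3. KO1 was the lowest of all 6 libraries and KO2 the highest. Means were 6.36 ± 2.11 and 9.79 ± 6.07 FPKM (SD, n = 3 each), and the fitted log2 difference was 0.39 ± 0.48 (SE; 95% interval −0.73 to 1.5, adjusted p = 0.562 in limma; exact permutation p = 0.60). The intervals of all 3 zona genes include 0 and also include a doubling (a log2 difference of 1), and 3 libraries a group do not tell these apart.

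Leaving out KO1 changed the calls of the zona genes. Without it, the fitted log2 differences were 0.95 for Zp1, 1.77 for Zp2 and 0.96 for Zp3, with adjusted p-values of 0.034, 0.00804 and 0.0281 in limma, and all 5 tested members passed. The background moved as well, since 45.3% of all tested genes then passed in either direction and 18.0% passed as higher. Without KO2 the difference of Zp1 was −0.01 (adjusted p = 0.984 in limma), and only Astl and Cd9 passed, beside 13.5% of all genes. Whether KO1 differs in its oocytes or in its preparation was not tested.

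**Figure D2:**
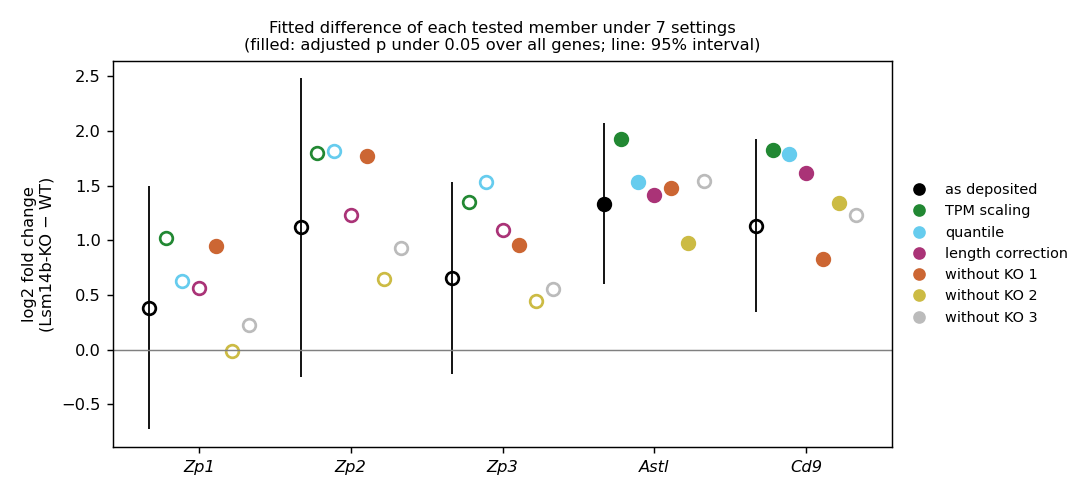
Fitted log2 difference (Lsm14b-KO minus WT, y axis) of the 5 tested members under 7 settings, with filled points where the adjusted p was below 0.05 and the 95% interval drawn for the values as deposited. Astl and Cd9 lie above 0 under every setting drawn, the zona genes are filled only without KO1, and Zp1 falls to −0.01 without KO2.

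Cd81 was barely seen. It was listed at 0 FPKM in the 3 WT libraries and in KO1, at 0.21 FPKM in KO2 and at 0.18 FPKM in KO3, and it stayed below the 1 FPKM limit throughout. The few values above 0 are in the KO libraries with the most genes detected, 11597 and 11733 against 10305 to 10926 in the other libraries. No fold change was computed for it, since the WT group is listed at 0. The deposited locus of Cd81 also takes in R74862, a gene on the opposite strand.

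The 3 zona mRNAs varied together between libraries. In each, WT1 was the lowest and WT3 the highest WT library, and KO1 was the lowest and KO2 the highest KO library, an order noticed after the values were seen. Of the 6398 tested genes, 6.96% had this order, and so did 6 of the 14 oocyte markers (Bmp15, Gdf9, Mos, Nlrp5, Padi6 and Tle6). Other markers of the same list, Dppa3, Ooep, Oosp1, Npm2, H1foo and Bcl2l10, had the reverse order in the KO libraries. For them KO1 was the highest and KO2 the lowest KO library, and Kit and Zar1 had neither order. Over the 6 libraries, log2 levels of Zp2 and Zp3 had a Pearson r of 0.98, those of Zp1 and Zp2 of 0.94 and those of Zp1 and Zp3 of 0.89. Cd9 followed another pattern, with r of −0.15 to 0.29 with the zona genes, and Astl lay between, with r of 0.52 to 0.74. These coefficients describe 6 libraries that share scale and genotype, and were not tested.

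Ratios between members within a library do not depend on how that library was scaled. Of the 10 pairs among the 5 expressed members, the ratio of Zp1 to Zp2 was the 1 pair in which the groups did not overlap. It was 0.102, 0.0978 and 0.0855 in WT1, WT2 and WT3 and 0.0581, 0.0563 and 0.0583 in KO1, KO2 and KO3. All KO libraries, KO1 included, lay within a narrow range below the WT values. The mean log2 ratio was −3.40 ± 0.13 in WT and −4.12 ± 0.03 in KO libraries (SD, n = 3 each), a KO to WT fold of 0.607. The exact permutation test gave p = 0.10, the smallest it can give here, and 0.667 after adjustment over the 10 pairs, so the design could not call this difference.

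The other zona ratios were less even. Zp1 to Zp3 was 0.0161, 0.0162 and 0.0166 in WT and 0.00843, 0.0193 and 0.0159 in KO1, KO2 and KO3, and Zp2 to Zp3 was 0.158, 0.166 and 0.195 in WT and 0.145, 0.343 and 0.272 in the KO libraries. In KO1 both were below the WT range, and in KO2 both were above it. The exact permutation p was 0.70 for the former and 0.40 for the latter. Zp1 made up 1.37% of the summed zona FPKM in each WT library and 0.731%, 1.42% and 1.23% in KO1, KO2 and KO3. Zp3 made up most of that sum, 82.6% to 85.2% in WT and 73.4% to 86.7% in KO libraries.

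**Figure D3:**
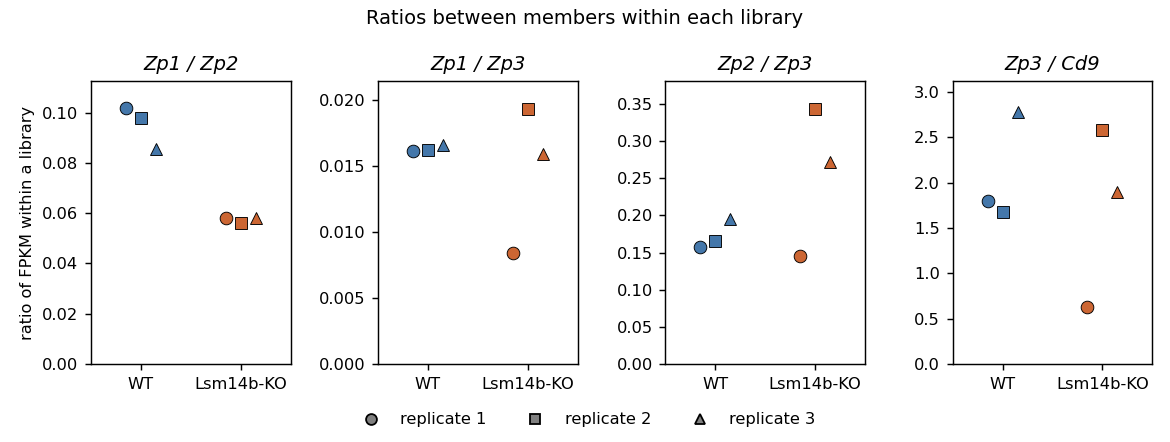
Ratio of the FPKM of 2 members within each library (y axis, linear from 0, separate scale per pair) for 4 of the 10 pairs. For Zp1 to Zp2 the KO points lie between 0.0563 and 0.0583, below the WT points of 0.0855 to 0.102, while in the other pairs drawn the groups overlap.

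Ratios of the zona mRNAs to Cd9 were below the WT range in KO1. Zp3 to Cd9 was 1.80, 1.68 and 2.78 in WT and 0.628, 2.58 and 1.89 in KO1, KO2 and KO3, with KO2 and KO3 inside the WT range (exact permutation p = 0.70). Zp1 to Cd9 was 0.0272 to 0.0463 in WT and 0.00529, 0.0499 and 0.0301 in KO1, KO2 and KO3, and Zp2 to Cd9 was 0.278 to 0.542 in WT and 0.0910, 0.886 and 0.515 in the KO libraries, so that KO2 lay above the WT range in both (exact permutation p = 0.90 and 1). Astl to Cd9 was 0.0168, 0.0177 and 0.0168 in WT and 0.0122, 0.0528 and 0.0192 in the KO libraries, where KO1 was the lowest value and KO2 the highest (exact permutation p = 0.70).

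As a share of all FPKM in a library, the 6 members together held 0.0435%, 0.0499% and 0.0730% in WT and 0.105%, 0.249% and 0.183% in KO1, KO2 and KO3. Each KO share was above each WT share, a difference of 0.123 percentage points between the means (exact permutation p = 0.10, the smallest possible). For the 3 zona genes alone the shares overlapped, at 0.0294%, 0.0330% and 0.0561% in WT and 0.0438%, 0.191% and 0.129% in KO1, KO2 and KO3 (exact permutation p = 0.20). The denominator, the FPKM sum, was itself lower in the KO libraries, as given above. With the 100 most abundant other genes taken out of the denominator, the shares were 0.153% to 0.257% in WT and 0.372% to 0.779% in KO libraries.

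Transcript length moved with the comparison across all genes and bears on Cd9 and Zp3, which have short mRNAs of 1228 and 1323 bases. The median log2 difference of tested genes was −0.62 for transcripts below 1000 bases, −0.32 from 1000 to 2000, 0.03 from 2000 to 3000 and 0.27 above 3000. Cd9 and Zp3 were therefore above the median of their length class, by their differences of 1.13 and 0.65 against −0.32, as was Zp1 (1963 bases, 0.39). Zp2 (2221 bases) and Astl (2377 bases) differed by 1.12 and 1.33 against a class median of 0.03. After a correction for length, differences were 1.62 for Cd9 (adjusted p = 0.00513 in limma) and 1.41 for Astl, and 0.56 for Zp1, 1.23 for Zp2 and 1.09 for Zp3 (adjusted p = 0.422, 0.155 and 0.0904 in limma), which again did not pass. Scaling to a common sum gave 1.02, 1.80 and 1.35 for Zp1, Zp2 and Zp3, and quantile normalization gave 0.63, 1.82 and 1.53, none past the threshold (lowest adjusted p 0.0678 in limma, for Zp3).

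The genes around the members in the same processes were counted next, on lists that exclude the members. The median log2 difference of all tested genes was −0.08. Among egg coat and sperm-binding partners 6 of 11 genes were tested, 2 were lower and none higher, with a median of −0.78. Across all tested genes 15.2% were lower and 6.38% higher. Oosp3, an oocyte-secreted protein gene, had WT and KO means of 6763.4 ± 553 and 855 ± 737 FPKM (SD, n = 3 each) and fell by a log2 difference of −3.32 (adjusted p = 0.0068 in limma). KO1 held 1702.0 FPKM, and KO2 and KO3 held 355 and 509. Dmbt1 fell from 1.5 to 0.403 FPKM (−0.85, adjusted p = 0.042 in limma). Izumo1r, which encodes the egg receptor JUNO for the sperm protein IZUMO1, stood at 94.3, 98.9 and 109 FPKM in WT and 86.3, 94.9 and 96.0 FPKM in KO libraries and did not pass (adjusted p = 0.737 in limma). Oosp1 had group means of 5252.7 and 3442.0 FPKM and Oosp2 of 6779.7 and 4075.8 FPKM, and neither passed.

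Among the other tetraspanins 10 of 29 were tested, 2 were higher and none lower, with a median of 0.39. Tspan3 rose from 4.14, 3.76 and 4.33 FPKM in WT to 14.8, 23.0 and 12.3 FPKM in KO1, KO2 and KO3 (log2 difference 1.76, adjusted p = 0.0058 in limma), and Tspan13 rose from a mean of 3.41 to 8.37 FPKM (1.15, adjusted p = 0.030 in limma). Of the partners of CD9 and CD81 and the egg integrins, 6 of 21 were tested and none passed in limma, with a median of 0.23. By name, Itga6 had means of 1.67 and 2.03 FPKM, and Itgb1, which encodes its beta chain, stayed at 0.28 and 0.427 FPKM, under the limit. The CD9 partner genes Ptgfrn and Igsf8 were also under it, with Ptgfrn at 0.105 and 0.574 FPKM and Igsf8 at 0 in all libraries but KO3.

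The transcription factors of the zona programme included 2 higher genes and no lower one among 5 tested of 12, with a median of 0.74. Nobox, a homeobox factor needed for oocyte gene expression, stood at 10.5, 10.5 and 16.5 FPKM in WT and at 46.3, 98.9 and 52.3 FPKM in KO1, KO2 and KO3, a log2 difference of 2.25 (adjusted p = 0.0064 in limma). Lhx8, another homeobox factor of oocytes, rose from 9.18 to 16.8 FPKM (0.80, adjusted p = 0.045 in limma). Figla stood at 92.2, 96.4 and 91.7 FPKM in WT and at 147, 57.8 and 78.1 FPKM in KO1, KO2 and KO3. Its KO libraries lay on both sides of the WT range, in the reverse of the order that the zona genes had there, and its mean difference was −0.10 (adjusted p = 0.86 in limma).

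Of the genes for cortical granule exocytosis and content, 14 of 27 were tested, with 1 higher, 1 lower and a median of −0.01. Vamp8, a vesicle SNARE, fell from 455 ± 21.1 to 157 ± 102 FPKM (SD, n = 3 each; −1.73, adjusted p = 0.034 in limma), and Nsf, the ATPase that separates SNARE complexes, rose from 1.89 to 5.72 FPKM (1.16, adjusted p = 0.027 in limma). Snap23, a membrane SNARE of the oocyte, had means of 34.5 and 29.6 FPKM and did not pass, and Stx4a was at 0 in all libraries but KO3. Among the regulators around ovastacin 6 of 10 were tested, none was higher and 1 was lower, with a median of 0.74. That gene was Plat, tissue plasminogen activator, at 51.3, 57.3 and 51.1 FPKM in WT and 18.5, 23.3 and 15.7 FPKM in KO1, KO2 and KO3 (−1.44, adjusted p = 0.011 in limma).

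Genes for glycan synthesis and processing of secreted proteins, which zona proteins pass through before secretion, had 4 higher and 1 lower among 15 tested of 30, with a median of 0.56. C1galt1c1, which encodes the chaperone COSMC of the core 1 O-glycan enzyme, fell from 138, 111 and 99.1 FPKM in WT to 22.0, 6.5 and 7.65 FPKM in KO1, KO2 and KO3 (−3.35, adjusted p = 0.0034 in limma). C1galt1, the gene of that enzyme itself, had means of 2.47 and 3.77 FPKM and did not pass (adjusted p = 0.172 in limma). The higher genes were the endoplasmic reticulum chaperones Hsp90b1 (1.28 to 6.55 FPKM) and Hspa5 (10.8 to 29.4 FPKM) and the oligosaccharyltransferase subunits Stt3a and Stt3b. Furin and Mgat1, of proprotein cleavage and N-glycan branching, were under the limit at no more than 0.463 and 0.347 FPKM. Oosp3, Tspan3, Nobox and C1galt1c1 passed under 16 of 16 alternative settings, with adjusted p-values of at most 0.0497 in limma. Each of Dmbt1, Tspan13, Lhx8, Vamp8, Nsf, Plat, Hsp90b1 and Hspa5 lost its call when WT1, WT2 or KO3 was left out, and their highest adjusted p-values lay between 0.0683 and 0.148. With no filter on low values all of these but Plat and Hspa5 lost their calls. Plat and Dmbt1 lost theirs with scaling to a common sum, where the difference of Plat was −0.77 (adjusted p = 0.11 in limma), and Vamp8 lost its call with quantile normalization (−1.05, adjusted p = 0.0548 in limma). Dmbt1 also lost its call with a pseudocount of 0.01 and without a variance trend. Without KO1, the higher and lower genes numbered 1 and 4 among the egg coat partners, 2 and 0 among the tetraspanins, 1 and 0 among the CD9 and CD81 partners, 2 and 0 among the transcription factors, 3 and 3 for cortical granules, 2 and 1 around ovastacin and 8 and 3 for glycan synthesis and processing, where 18.0% and 27.3% of all tested genes were higher and lower.

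**Figure D4:**
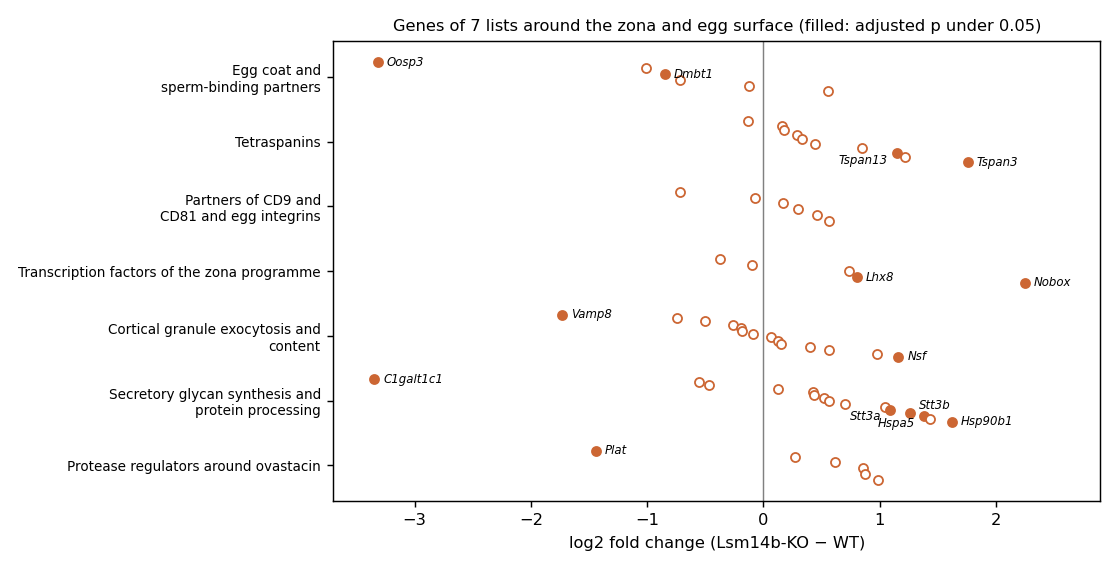
Log2 difference (Lsm14b-KO minus WT, x axis) of each tested gene in 7 lists around the zona and egg surface (rows), filled and named where the adjusted p was below 0.05. Filled points lie on both sides of 0, from −3.35 for C1galt1c1 to 2.25 for Nobox.

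By likeness of pattern, the genes with a mean of at least 5 FPKM closest to each member over the 6 libraries were taken by Pearson r of log2(FPKM + 1) among 2560 genes. They were Rnf181, Wapal and Cdk2ap2 for Zp1 (r of 0.991 to 0.994), Accsl, Cdca5 and Rpa2 for Zp2 (0.995 to 0.997), and Cdca5, Rpa2 and Henmt1 for Zp3 (0.988 to 0.994). Zp2 and Zp3 thus shared Cdca5 and Rpa2. For Astl they were Gm8801, Pebp1 and Ptbp2 (0.987 to 0.997), and for Cd9 they were Ube2l3, Cd69 and Lonrf3 (0.991 to 0.996). With 6 libraries and this many genes, values this high describe the choice and were not tested.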

How the data were processed

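Oocyte RNA was amplified by Smart-seq2 procedures, per the labels, and sequenced as 150 bp read pairs. The labels name both the KAPA and the NEBNext library kit and random primers for cDNA synthesis, so kit and priming are not settled. The authors aligned reads to mm10 with TopHat2 2.0.13 and computed FPKM with Cufflinks 2.2.1, per the labels. The annotation and the use of strand are not given in the sources used here. The deposited table holds FPKM per library and the authors' own fold changes, p-values and q-values, which were not used.

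A gene entered the test if any of the 6 libraries reached 1 FPKM. Tests were run on log2(FPKM + 1) with limma 3.58.1 in R 4.3.3 (genotype as the only term, trended variances, two-sided, Benjamini-Hochberg over 6398 genes, threshold 0.05), after a test on simulated data. Single values and ratios were compared by exact permutation. Ratios were set for all member pairs, but Cd81 was at 0 in 4 libraries, which left 10 pairs. The members and lists were chosen with earlier results of these data known. From each list, up to 3 genes past the threshold with the largest difference were named, beside a fixed set of genes named whatever their values. Stt3a and Stt3b, the cell type markers and the genes sharing the library order were named after their values were seen. Near-identical copies were searched with blastn 2.17.0 (at least 95% identity over 200 bases). Coordinates of genes are from GENCODE on GRCm38, the same build as mm10. Transcript lengths were found for 98.7% of tested genes. Alternatives were other pseudocounts, filters, scalings and variance models, a replicate block and leaving out each library.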

Additional observations from a re-analysis of the deposited data

How the results depend on the processing

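All genes: 1383 passed in limma (408 higher, 975 lower; 29.5% higher). The count was 720 (178 higher, 542 lower) with no filter on low values, and 315 to 2898 (39 to 1151 higher, 276 to 1747 lower) when 1 library was left out. Library scaling to a common sum (TPM) gave 833 higher and 486 lower (63.2% higher) and raised the median of all genes by 0.475, quantile normalization gave 42.4% higher (median raised by 0.144), and length correction gave 43.2% higher (0.171).

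Members: 2 of 5 passed (Astl and Cd9) with a pseudocount of 0.1 or 0.01, a filter of 1 FPKM in 3 libraries, TPM, quantile or median-of-ratios scaling, length correction and no variance trend, 0 with no filter on low values, and 0 to 5 when 1 library was left out. Cd9 then had differences of 1.14, 1.14, 1.13, 1.83, 1.79, 1.14, 1.62 and 1.13. Astl with no filter had 1.33 (adjusted p = 0.0659 in limma). With 1 library left out, differences ranged from −0.0146 (without KO2) to 0.949 for Zp1, 0.649 to 1.77 for Zp2, 0.447 to 0.956 for Zp3, 0.833 to 1.34 for Cd9 and 0.979 to 1.54 for Astl.

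Direction turned for Izumo1r (0.563 with TPM, 0.49 with quantile normalization, 0.332 with length correction), Figla (0.59, 0.481, 0.576, and −0.469 to 0.198 with 1 library left out), Snap23 (0.408 with TPM, 0.163 with quantile normalization) and Oosp1 (0.0606 with quantile normalization), none of them past the threshold. Ratio differences turned for Zp1 to Cd9 (0.0587 with medians, −1.39 to 0.225 with 1 library left out), Zp2 to Cd9 (0.863 with medians, 0.303 without WT3, −0.69 to 0.951 with 1 left out), Zp3 to Cd9 (0.0777 with medians, −0.898 to 0.122), Zp1 to Zp3 (−0.495 to 0.103), Zp2 to Astl (−0.871 to 0.0551) and Astl to Cd9 (−0.158 to 0.896). The cause was not tested.

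Same-numbered WT and KO libraries correlated in their deviations from the group mean at 0.19, −0.128 and 0.0179, and 1 of 3 matched its own number best. With so few libraries these values cannot tell whether same-numbered libraries were prepared together. With the replicate block 1244 genes and 1 member passed, and Dmbt1 and Lhx8 did not (adjusted p = 0.0643 and 0.0814 in limma).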
